A study of Mus musculus with 18 samples.

Results

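Microglia are the resident macrophages of the brain, and 9 genes used to mark them were followed in RNA from cells sorted as brain endothelium: P2ry12, Tmem119, Cx3cr1, Csf1r, C1qa, C1qb, C1qc, Ctss and Aif1. They were found by symbol in a deposited table of 21638 genes, which held all 9 of them. The libraries came from cortical cells of adult mice that were positive for CD31 and negative for CD41 and CD45, a gate that takes endothelial cells and leaves out platelets and leukocytes. There were 6 groups of 3 libraries: sham surgery ipsilateral and contralateral, middle cerebral artery occlusion (MCAO, a stroke model) ipsilateral and contralateral, and MCAO ipsilateral in mice labelled Hdac2 ECKO or Ezh2 ECKO. ECKO stands for a deletion in endothelial cells. It was made with Hdac2lox/lox or Ezh2lox/lox alleles and Cdh5CreERT2, a tamoxifen-activated recombinase driven by the endothelial Cdh5 promoter. Sham and MCAO mice were labelled WT, and the labels do not say whether they carried the recombinase or floxed alleles. Tamoxifen at 75 mg/kg is labelled for all 6 groups, controls included. The series' design gives 5 doses from day 0 to day 4 and collection of the brains on day 7 of the stroke. The labels do not say whether libraries came from single or pooled mice, so the p-values below measure the spread between libraries. No batch is labelled.

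As background, microglia sense extracellular ADP through P2RY12, neuronal fractalkine through CX3CR1, and the survival factors CSF1 and IL-34 through CSF1R. They are the main source of C1q in the brain, the recognition protein of the classical complement pathway, whose A, B and C chains are encoded by adjacent genes. Ctss encodes the lysosomal protease cathepsin S, Aif1 encodes the actin-binding protein IBA1, and Tmem119 encodes a membrane protein that marks resident microglia. P2ry12 is also the ADP receptor of platelets, and other macrophages use most of the 9 genes.

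The 3 C1q genes lie next to each other on the minus strand of chromosome 4 (build GRCm38), C1qb at 136880129 to 136886187, C1qc at 136889804 to 136893065 and C1qa at 136895917 to 136898803, a stretch of 18.7 kb. P2ry12 lies on chromosome 3 at 59216272 to 59262871 (minus strand), Ctss on chromosome 3 at 95526786 to 95556403 (plus), Cx3cr1 on chromosome 9 at 119901616 to 120069879 (minus), Aif1 on chromosome 17 at 35170991 to 35176068 (minus) and Tmem119 on chromosome 5 at 113793729 to 113800516 (minus). All 9 genes code for proteins, and the values below are sums over the exons of each whole gene. P2ry12 shares 9 exon bases with Med12l on the opposite strand. The strand setting of the counting is not given in the sources used here, so reads in shared bases cannot be assigned to either gene.

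PU.1, the factor that macrophages and microglia depend on, belongs to the ETS family and binds purine-rich sites with a GGAA core. RefSeq promoter sequences (GRCm38.p6) were at hand for 6 of the 9 genes: P2ry12, Cx3cr1, C1qb, C1qc, Ctss and Aif1. In the 250 bases before their starts the letters AGGAAG were searched on both strands (CTTCCT on the other strand). They occurred in 3 of the 6, and in 29.5% of 32851 mouse promoters of the same length. The longer GAGGAAGT, which contains AGGAAG, occurred in 1 of the 6 (C1qc, reversed) and in 2.44% of all promoters. The 3 promoters with a match are shown because they belong to the member with the largest difference between the ipsilateral MCAO and ECKO groups and to the C1q pair that moved together most closely. Sequences run 5′ to 3′ on the strand of the gene, capitals mark AGGAAG or CTTCCT, and C1qc is shown only as far as its annotated transcript start.
P2ry12, chr3:59262986-59263235, minus strand: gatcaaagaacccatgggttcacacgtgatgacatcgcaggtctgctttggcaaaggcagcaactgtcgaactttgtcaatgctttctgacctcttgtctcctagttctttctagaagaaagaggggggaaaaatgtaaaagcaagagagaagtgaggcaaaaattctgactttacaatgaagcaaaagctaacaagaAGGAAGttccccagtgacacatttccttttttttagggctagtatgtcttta
C1qb, chr4:136886201-136886450, minus strand: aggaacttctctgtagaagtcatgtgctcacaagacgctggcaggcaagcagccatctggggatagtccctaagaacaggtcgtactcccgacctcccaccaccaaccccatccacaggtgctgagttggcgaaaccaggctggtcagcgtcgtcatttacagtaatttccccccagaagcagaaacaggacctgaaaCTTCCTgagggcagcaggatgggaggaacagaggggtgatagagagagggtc
C1qc, chr4:136893066-136893164, minus strand: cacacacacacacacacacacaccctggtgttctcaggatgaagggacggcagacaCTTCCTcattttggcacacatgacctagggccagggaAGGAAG
The match began 52 bases before the RefSeq start in both P2ry12 and C1qb, on opposite strands, and in C1qc the matches began 157 bases before it as written and 194 bases before it on the other strand. A match of letters is a description of the sequence and shows no binding.

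The library totals ran from 25791401 to 57576255 counts. The claudin gene Cldn5 and the CD31 gene Pecam1, which define brain endothelium, had between 8296 and 107361 and between 6749 and 21955 counts per library. A level is given in 2 ways. CPM is the count in a library scaled to 1000000 counts after TMM adjustment of its total, and the endothelial share is the count per 1000 counts of Cldn5 plus Pecam1 in the same library. Counts from 1 to 20 were even in 77.3% to 89.4% of cases, which is what counting each mate of a pair gives. A floor of 3 counts corresponded to 0.0619 to 0.101 CPM and covers counting error only, with each mate taken as separate. In MCAO contralateral replicate 1 and Ezh2 ECKO replicate 2, the libraries of lowest total, the 1466 genes of olfactory and vomeronasal receptors, which brain endothelium does not use, added up to 1889 and 2083 CPM of the raw total. This receptor background was 152 to 716 CPM elsewhere. Hdac2 measured 76.8 ± 16.8 CPM where its deletion is labelled and 82.9 ± 14.0 in MCAO ipsilateral. Ezh2 measured 13.4 ± 5.76 CPM where its own is labelled and 6.43 ± 1.77 in MCAO ipsilateral (SD, n = 3 for each value). Neither targeted gene was lower by the test (Hdac2 log2 fold change -0.11, adjusted p = 0.925; Ezh2 1.05, adjusted p = 0.485). Counts over whole genes do not resolve a floxed exon, and below, Hdac2 ECKO and Ezh2 ECKO name the libraries by their labels.

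All 9 microglia genes were scarce beside the endothelial ones. Together they had 8951 counts in the 18 libraries, against 823567 for Cldn5 alone. Per kilobase of exon, the mean level of Ctss was 2.36 CPM, or 0.298% of the level of Cldn5, and it was the highest of the 9. C1qa followed at 0.164% and C1qb at 0.117%, then Csf1r at 0.0891%, Aif1 at 0.0631%, P2ry12 at 0.0574% and C1qc at 0.0505% of Cldn5. Cx3cr1 and Tmem119 were lowest, at 0.00548% and 0.00497%. Against Pecam1, per kilobase, Ctss stood at 4.41% and Csf1r at 1.32%. These means hide a wide spread, and neighbours in the order did not differ beyond it: C1qa ranged from 0 to 10.9 CPM per kilobase over the libraries, and Ctss from 0 to 5.59.

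P2ry12 and Csf1r had counts in all 18 libraries. Ctss was at 0 in 1 library, Aif1 in 4, C1qc in 5, Cx3cr1, C1qb and Tmem119 in 6 each, and C1qa in 7. In the sham ipsilateral libraries Csf1r alone supplied most of the signal: it made up 80.5% of the summed CPM of the 9 genes in sham ipsilateral libraries and 26.6% in MCAO ipsilateral ones. Csf1r lies on chromosome 18 at 61100598 to 61132149 (plus strand, GRCm38) and shares 873 exon bases with Hmgxb3 on the opposite strand, so reads there cannot be assigned to either gene. Csf1r was also the member that followed the library most closely, with a Spearman rho of 0.74 with the total count and -0.79 with the receptor background over the 18 libraries. Its part in the differences below was not tested.

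**Figure D1:**
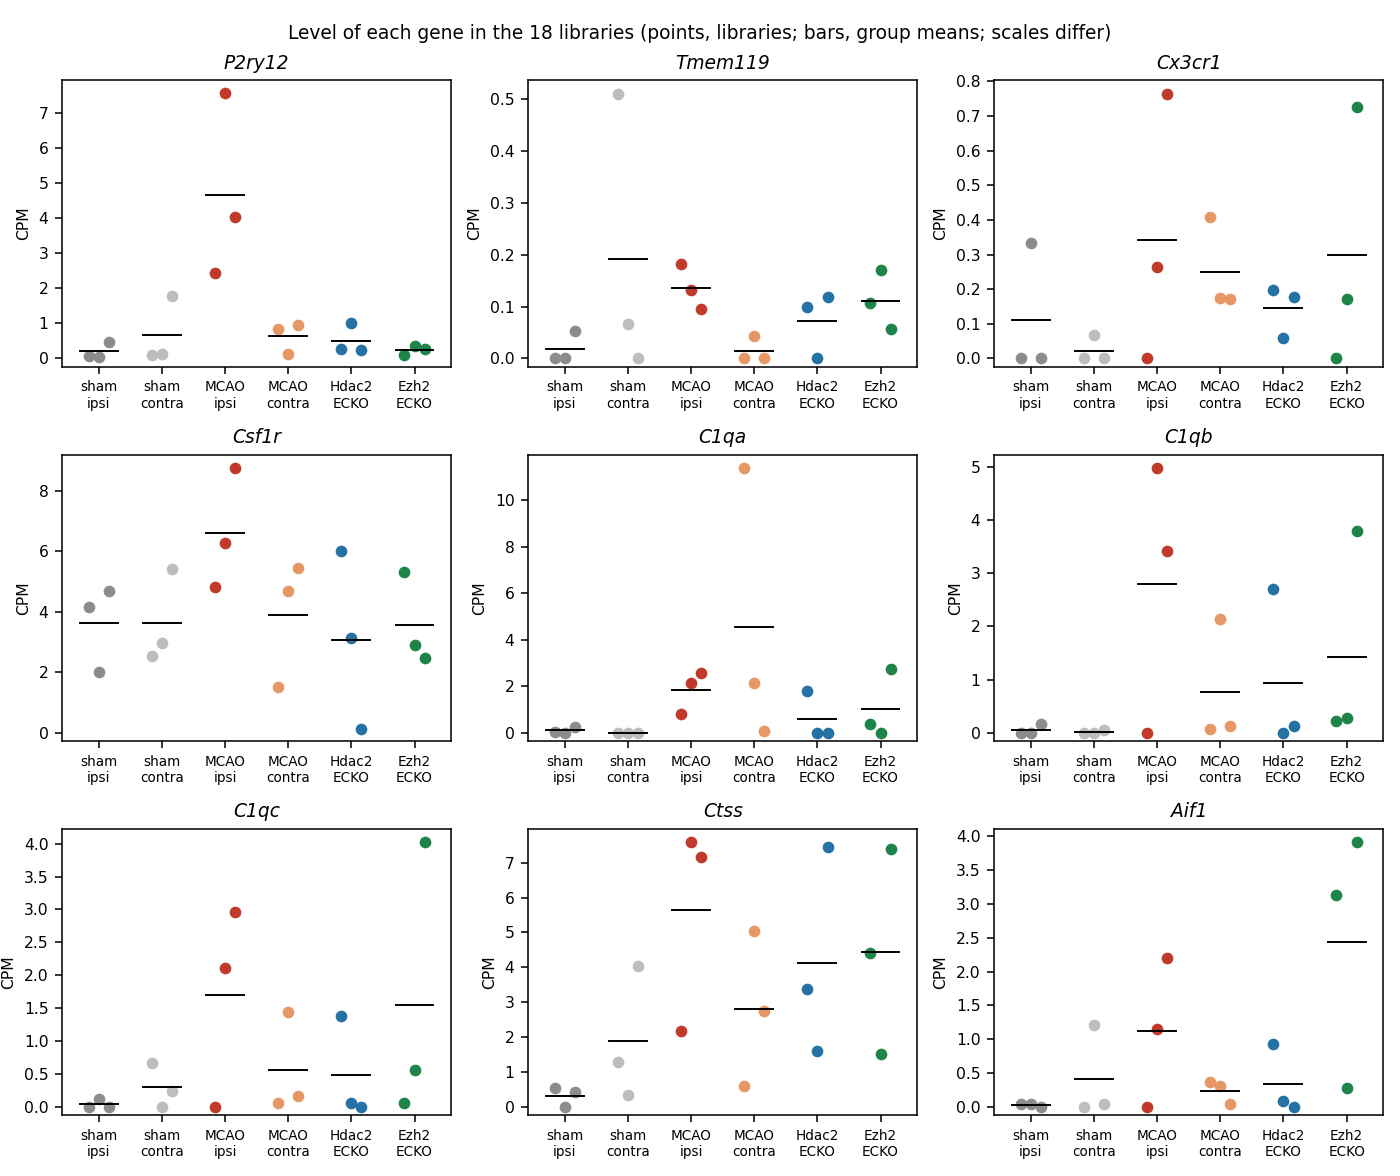
CPM of each of the 9 genes on the y axis (linear, with its own scale in each panel) by group, 3 points for the 3 libraries and a bar for the group mean. P2ry12 stands above all other libraries in the 3 MCAO ipsilateral libraries (2.44, 7.54 and 4.02 CPM), while C1qb, C1qc and Aif1 are high in 2 of the 3 and at 0 in the other.

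The first comparison asked how the side of the occlusion differed from the same side after sham surgery. By CPM, P2ry12, Ctss, C1qa and Csf1r were each higher in every MCAO ipsilateral library than in any sham ipsilateral library, and C1qb, C1qc and Aif1 were higher in 2 of 3. Tmem119, below the filter on low counts, did not overlap either. None passed the adjusted threshold of 0.05 in edgeR's quasi-likelihood test, in which 0 of the 17094 genes tested passed (0%) and 1210 had an unadjusted p under 0.05. Leaving out the low-count filter, 9 of 9 members had a log2 fold change above 0, with a median of 4.05 beside -0.31 for all genes. With the filter (a count of at least 10 in 3 libraries) Tmem119 dropped out, and the median of the other 8 was 4.32 beside -0.09 for all genes. A log2 fold change above 0 was found for 45.9% of all genes.

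P2ry12 had 107, 342 and 168 counts in MCAO ipsilateral replicates 1, 2 and 3, and 4, 2 and 18 in sham ipsilateral. The groups did not overlap, as was true of 13.3% of all genes in the higher direction. The log2 fold change was 4.51 ± 1.42 (SE), with an unadjusted p of 0.0045 and an adjusted p of 0.530. As an endothelial share P2ry12 had a mean of 2.14 ± 0.688 per 1000 against 0.148 ± 0.158 (SD, n = 3), with no overlap either. DESeq2 on the same counts gave 4.49 and an adjusted p of 0.0261.
Ctss counts were 96, 344 and 300 after MCAO and 26, 0 and 16 after sham. The lowest MCAO library stood clear of the highest sham library, and the log2 fold change was 4.12 ± 1.28 (unadjusted p = 0.0041, adjusted p = 0.510). DESeq2 gave 4.13 with an adjusted p of 0.0197. P2ry12 and Ctss were the 2 members that DESeq2 called here, among 55 genes of 21591.
Csf1r counts were 212, 284 and 367 against 202, 85 and 175. Its CPM did not overlap (4.83 to 8.78 against 2.02 to 4.68), but the log2 fold change of 0.87 ± 0.91 was smaller than its error (adjusted p = 0.831). As an endothelial share Csf1r did overlap, at 2.22 to 5.18 per 1000 against 2.267 to 3.205.

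The C1q genes and Aif1 split the 3 MCAO ipsilateral libraries. C1qa had 36, 96 and 108 counts against 2, 0 and 10 in sham ipsilateral, without overlap (log2 fold change 4.14 ± 2.13, unadjusted p = 0.067). C1qb had 0, 226 and 143 against 0, 0 and 6, and C1qc 0, 96 and 124 against 0, 5 and 0. Aif1 showed the same pattern, with 0, 52 and 92 counts against 2, 2 and 0. Replicate 1 was thus at 0 for all 3 of these genes while it held 107 counts of P2ry12. The log2 fold changes were 5.68 ± 2.35 for C1qb, 5.31 ± 2.33 for C1qc and 5.06 ± 2.13 for Aif1, with unadjusted p-values of 0.025, 0.033 and 0.027 and adjusted p-values of 0.645, 0.667 and 0.647. In all, 5 of the 8 tested genes had an unadjusted p under 0.05 in the higher direction, against 4.26% of all genes. That number was 2 without sham ipsilateral replicate 1, 3 without MCAO ipsilateral replicate 2 or 3, and 3 with scaling by Cldn5 plus Pecam1, while all 8 kept a log2 fold change above 0. The members were chosen with earlier results of these data known, so such counts beside all genes are descriptions, here and below.
The fractalkine receptor Cx3cr1 had 0, 12 and 32 counts against 0, 14 and 0, and its groups overlapped (log2 fold change 1.60 ± 1.89). Tmem119, the marker most restricted to resident microglia, had 8, 6 and 4 counts against 0, 0 and 2, and did not pass the filter. Its level was 0.137 ± 0.0435 CPM in MCAO ipsilateral, where 3 counts are worth 0.0662 to 0.0717 CPM.

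**Figure D2:**
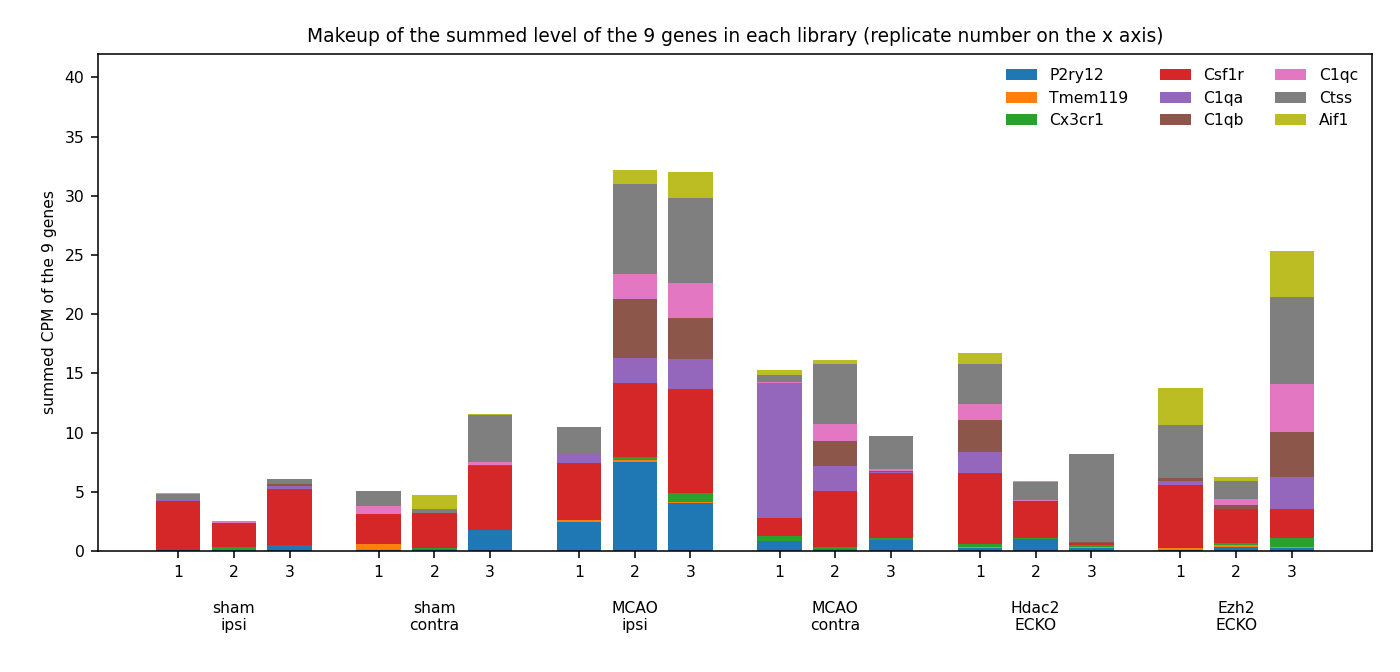
Summed CPM of the 9 genes on the y axis, stacked by gene, for replicates 1, 2 and 3 of each group on the x axis. MCAO ipsilateral replicates 2 and 3 reach 32.2 and 32.0 CPM with every gene present, the sham ipsilateral libraries stay between 2.57 and 6.07 CPM and are mostly Csf1r, and MCAO contralateral replicate 1 is mostly C1qa.

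The summed CPM of the 9 genes was 24.9 ± 12.5 on the occluded side of the brain. It was 13.7 ± 3.47 on the other side, and after sham surgery 4.50 ± 1.78 ipsilaterally and 7.15 ± 3.83 contralaterally. The Ezh2 ECKO group had 15.1 ± 9.65 and the Hdac2 ECKO group 10.3 ± 5.70 (SD of 3 libraries for every group). MCAO ipsilateral libraries held 36.4% of all counts on the 9 genes. As an endothelial share the order of the means changed. Ezh2 ECKO had 18.2 ± 10.7 per 1000, MCAO contralateral 14.5 ± 15.5 (32.3 in replicate 1 and 6.82 and 4.36 in the others), MCAO ipsilateral 12.0 ± 6.55, Hdac2 ECKO 8.10 ± 3.28, sham contralateral 4.84 ± 2.08 and sham ipsilateral 3.50 ± 0.772. The Ezh2 ECKO libraries had the lowest mean Cldn5, 569 ± 226 CPM against 1699 ± 580 in MCAO ipsilateral (log2 fold change -1.58, adjusted p = 0.138), so the same counts weigh more there. They also weigh more in MCAO contralateral replicate 1, where Cldn5 plus Pecam1 stood at 472 CPM against 2362 and 2230 in replicates 2 and 3. The summed CPM of the 9 genes was 15.25 in that replicate 1, beside 16.11 and 9.72. In bulk RNA, a change in the number of cells of a type and a change in RNA per cell cannot be told apart.

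Ptprc, the gene of the CD45 antigen that the gate excluded, did not follow the 9 genes. It stood at 0.480 ± 0.288 CPM in MCAO ipsilateral and 1.69 ± 0.956 in sham ipsilateral, in the opposite direction to the microglia genes (log2 fold change -1.81 ± 1.15, adjusted p = 0.752). Its rho with the mean level of the 9 genes was -0.25 over the 18 libraries. Its highest values, 4.30 and 6.57 CPM, came from the libraries of highest receptor background. Itga2b is the CD41 gene of platelets, which share P2ry12 with microglia. It was at 6.52 ± 0.152 CPM in sham ipsilateral and 13.6 ± 2.78 in MCAO ipsilateral. Its mean was 20.7 ± 13.6 in Hdac2 ECKO and 16.7 ± 13.7 in Ezh2 ECKO, where P2ry12 was low. Pf4, the gene of a platelet chemokine, was at 7.43 ± 3.53 CPM in sham ipsilateral and 8.58 ± 0.476 in MCAO ipsilateral. Its mean was 22.8 ± 23.4 in Hdac2 ECKO but 0.111 ± 0.003 in Ezh2 ECKO. The part of platelets in the P2ry12 counts was not tested.

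On the contralateral side C1qa, C1qb and Cx3cr1 were the 3 tested members without overlap by CPM between MCAO and sham. Against sham contralateral, MCAO contralateral libraries were higher for 6 of the 8 tested genes, and 59.3% of all genes were above 0. The median log2 fold change of the 8 was 0.72, also with C1qa set by the floor used below, beside 0.17 for all genes. The count was 4 of 8 with a median of 0.15 without MCAO contralateral replicate 2, and 7 of 8 with 2.11 without sham contralateral replicate 3. None of the 17094 genes was called (0%), with 754 at an unadjusted p under 0.05. DESeq2 called 31 genes and no member. C1qa had 363, 98 and 4 counts in MCAO contralateral and 0 in all 3 sham contralateral libraries. Its unadjusted p was 0.0027 and its adjusted p 0.920. Taking the highest floor of 3 counts per library in the sham group, 0.101 CPM, the mean was at least 44.98-fold higher after MCAO, and at least 11.0-fold higher without replicate 1. Replicate 3, with 4 counts or 0.0857 CPM, lay under that floor. The larger fold thus rests mostly on replicate 1 and the smaller on replicate 2, and neither holds for every library.
C1qb had 2, 98 and 6 counts against 0, 0 and 2 (log2 fold change 5.26 ± 2.40, unadjusted p = 0.039, against 2.65% of all genes under 0.05 in that direction), and Cx3cr1 13, 8 and 8 against 0, 2 and 0. By CPM these 3 genes were higher in every MCAO contralateral library than in any sham contralateral library, as were 3.65% of all genes. For C1qb that rests on 2 counts in MCAO contralateral replicate 1 and 2 in sham contralateral replicate 3, both under the floor of 3 counts, so its separation is not a difference at this depth. P2ry12 did not separate, with 27, 6 and 44 counts in MCAO contralateral and 4, 4 and 74 in sham contralateral, and its direction reversed in 10 of 28 alternative settings. Ctss overlapped too, with 19, 232 and 128 against 50, 10 and 168.
Markers of other cells went both ways in this comparison. All 7 oligodendrocyte genes were higher (median 1.23, summed level 46.6 to 214 CPM against 27.6 to 66.3), as were 5 of 6 neuronal genes (median 2.10, 4.88 to 10.7 CPM against 1.49 to 9.51), with 0 called in either list. In contrast, 0 of 8 mural genes (median -1.415) and 0 of 2 oligodendrocyte precursor genes (median -1.60) were higher. Of the astrocyte genes 3 of 7 were higher (median -0.50), and of the red cell genes 1 of 5 (median -0.28). The part of other cells in the result was not tested.

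Between the sides of the MCAO brain, P2ry12 was higher ipsilaterally by a log2 value of 2.86 ± 1.31 (unadjusted p = 0.040, against 0.328% of all genes under 0.05 in that direction, adjusted p = 1.00). Its CPM did not overlap, as for 3.49% of all genes in that direction, but its endothelial share did, because replicate 1 of the contralateral side had 1.79 per 1000. No member had an unadjusted p under 0.05 without MCAO ipsilateral replicate 2 or 3, or without any 1 of the 3 contralateral libraries. Of the 8 genes 7 were higher ipsilaterally, with C1qa the exception, where 46.2% of all genes were. No gene of the 17094 was called (0%), and 526 had an unadjusted p under 0.05. DESeq2 called 7 genes and no member.
Between the sides of the sham brain, Ctss was the 1 member with an unadjusted p under 0.05, with 26, 0 and 16 counts ipsilaterally and 50, 10 and 168 contralaterally (log2 fold change -2.54 ± 1.20, unadjusted p = 0.047, against 1.15% of all genes under 0.05 in that direction, adjusted p = 1.00). No member was called there and no gene at all (0%), with 317 genes at an unadjusted p under 0.05. DESeq2 called 5 genes and no member. Without sham contralateral replicate 3 the log2 fold change of Ctss was -1.35 ± 1.25 and no member had an unadjusted p under 0.05.
The test of whether the occlusion difference depended on the side gave log2 values of 4.58 ± 1.83 for P2ry12, 3.55 ± 1.64 for Ctss and 5.85 ± 2.73 for Aif1. Their unadjusted p-values were 0.020, 0.042 and 0.044, against 0.263% of all genes under 0.05 in that direction, and their adjusted p-values were all 0.941. No gene was called (0%), with 578 at an unadjusted p under 0.05, and DESeq2 called 5 genes and no member. For P2ry12 the value was 2.13 without sham contralateral replicate 3, which held 74 of the 82 P2ry12 counts of its group, and without MCAO ipsilateral replicate 2 none of the 3 genes had an unadjusted p under 0.05.

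The ECKO groups were compared with the ipsilateral MCAO libraries, so both comparisons rest on the same 3 control libraries. P2ry12 was lower in both. Its counts were 8, 34 and 8 in Hdac2 ECKO and 4, 12 and 10 in Ezh2 ECKO, beside 107, 342 and 168 in MCAO ipsilateral, and no library of either ECKO group reached the lowest control. The log2 fold change was -3.19 ± 1.33 in Hdac2 ECKO (unadjusted p = 0.026, adjusted p = 0.459) and -4.25 ± 1.40 in Ezh2 ECKO (unadjusted p = 0.0063, adjusted p = 0.112). Groups without overlap in the lower direction were found for 10.3% and 15.3% of all genes in these comparisons, and an unadjusted p under 0.05 in that direction for 5.24% and 10.7%. In Hdac2 ECKO no member had such a p without MCAO ipsilateral replicate 2 or without Hdac2 ECKO replicate 3. In Ezh2 ECKO, DESeq2 called P2ry12 at -4.03 with an adjusted p of 0.00809, and in Hdac2 ECKO it gave an adjusted p of 0.121. As an endothelial share, P2ry12 was 0.395 ± 0.313 per 1000 in Hdac2 ECKO and 0.353 ± 0.262 in Ezh2 ECKO against 2.14 ± 0.688 in MCAO ipsilateral, again without overlap. When the edgeR test scaled libraries by Cldn5 plus Pecam1, no member had an unadjusted p under 0.05 in either ECKO comparison. The 6 ECKO libraries held 0.108 to 1.02 CPM of P2ry12. The sham libraries held 0.0476 to 0.48 CPM, except sham contralateral replicate 3 at 1.78 CPM.

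The other 7 tested genes overlapped between the groups in both comparisons. In Hdac2 ECKO, 0 of 8 genes were higher than in MCAO ipsilateral and the median log2 fold change was -1.60 beside 0.11 for all genes (54.8% of all genes were above 0). The median was -3.73 without Hdac2 ECKO replicate 1, -1.11 without replicate 2 and -1.05 without MCAO ipsilateral replicate 3. The edgeR test called 2 of 17094 genes (0.0117%), neither of them a member. Ctss kept 102, 53 and 253 counts in Hdac2 ECKO, and its log2 fold change of -0.45 ± 1.12 became 0.53 when libraries were scaled by Cldn5 plus Pecam1. The C1q genes were carried by replicate 1, with 54, 82 and 42 counts of C1qa, C1qb and C1qc, against 0 to 4 in the other Hdac2 ECKO libraries. Csf1r had 4 counts in replicate 3 of that group, where Ctss made up 90.7% of all counts on the 9 genes.
In Ezh2 ECKO, 1 of 8 genes was higher (Aif1), with a median log2 fold change of -0.59 beside 0.17 for all genes, 55.4% of which were above 0. The median was -2.21 without Ezh2 ECKO replicate 3, -0.38 without replicate 1, -0.09 with 4 of 8 higher without replicate 2, and -0.93, -0.30 and -0.35 without MCAO ipsilateral replicate 1, 2 or 3. Of all genes, 1.46% were called, with no member among them. Aif1 had 116, 10 and 140 counts against 0, 52 and 92 (log2 fold change 1.13 ± 1.76, adjusted p = 0.728). Ctss had 164, 53 and 264 counts (log2 fold change -0.35 ± 1.12, adjusted p = 0.874). Scaling by Cldn5 plus Pecam1 raised the median of all genes to 1.54, and 7 of the 8 genes were then above 0 but under that median as a group (0.72), with P2ry12 still lower at -2.60. Without both libraries of highest receptor background, 4 of 8 were higher, P2ry12 stood at -4.54, and 1000 genes of 15641 were called, none a member.
Set directly against each other, Hdac2 ECKO and Ezh2 ECKO libraries gave log2 fold changes of 1.06 ± 1.26 for P2ry12 and -2.85 ± 1.88 for Aif1 (adjusted p = 0.799 and 0.627). Of the 8 genes 1 was higher in Hdac2 ECKO, against 44.4% of all genes, with a median log2 fold change of -0.71. Without Ezh2 ECKO replicate 3 it was 6 of 8 with a median of 0.65, and without Hdac2 ECKO replicate 1 the median was -2.99. The calls covered 0.123% of all genes and no member.

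**Figure D3:**
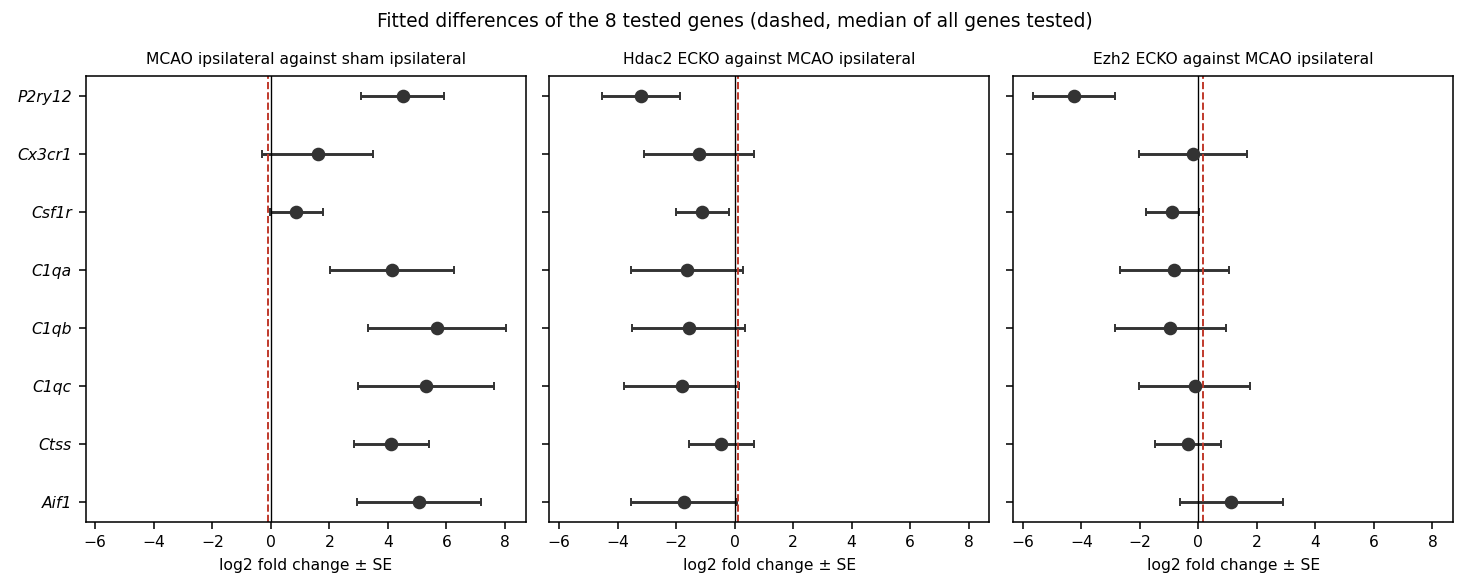
Log2 fold change (point) and its SE (bar) of the 8 tested genes in 3 comparisons, on a shared x axis, with the median of all genes tested as a dashed line. P2ry12 lies furthest from 0 in both ECKO panels, at -3.19 and -4.25, while the SE bars of C1qa, C1qb and C1qc cross 0 there.

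Other microglia genes were counted in lists. Of 12 other homeostatic microglia genes, which mark resting microglia, 9 were tested in MCAO against sham ipsilateral and 2 were higher, with a median log2 fold change of -0.85 beside -0.09 for all genes, and 0 called. The list's summed level was 112 to 140 CPM in sham ipsilateral and 129 to 160 in MCAO ipsilateral. The largest part came from Cmtm6, an immune checkpoint regulator of wide expression (log2 fold change -0.14). The difference in Gpr34, a lysophosphatidylserine receptor, was smaller than its SE of 1.63. The microglial genes P2ry13, Fcrls and Slc2a5 did not pass the filter. Against MCAO ipsilateral, 7 of the 9 tested genes of this list were higher in Ezh2 ECKO (median 0.87 beside 0.17 for all genes, 0 called). In Hdac2 ECKO 5 of the 9 were higher (median 0.33 beside 0.11 for all genes, 1 at an unadjusted p under 0.05, 0 called).
Of 12 genes of activated microglia, 11 were in the table and 10 were tested. All 10 had a log2 fold change above 0 with a median of 2.49, 4 at an unadjusted p under 0.05, and 0 called. Apoe, the lipid carrier, was at 669 ± 102 CPM in MCAO ipsilateral and 235 ± 124 in sham ipsilateral (log2 fold change 1.51 ± 0.57, adjusted p = 0.630). Spp1, which encodes osteopontin, was at 28.8 ± 30.6 against 0.376 ± 0.372 CPM (6.26 ± 2.12, adjusted p = 0.575), and Cd74, the invariant chain of MHC class II, had a log2 fold change of 1.53 ± 1.74. In Ezh2 ECKO 8 of the 10 were lower than in MCAO ipsilateral, with a median of -2.16 and 0 called, and Apoe was nearest to the threshold (-2.31 ± 0.59, adjusted p = 0.0505). Against the same controls, 9 of the 10 were lower in Hdac2 ECKO (median -1.87, 2 at an unadjusted p under 0.05, 0 called). Endothelial cells and astrocytes can use Apoe as well, so its level is not specific to microglia.

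Of 15 genes shared by myeloid cells, 11 were higher after MCAO on the ipsilateral side (median 0.95, 1 at an unadjusted p under 0.05, 0 called). Unc93b1, a chaperone of endosomal Toll-like receptors, was at 1.12 ± 0.79 and the lysosomal gene Laptm5 at 0.81 ± 1.38. Against MCAO ipsilateral, 8 of the 15 were higher in Ezh2 ECKO (median 0.29 beside 0.17 for all genes, 0 called). Of the lower ones, 2 had an unadjusted p under 0.05. In Hdac2 ECKO 9 of the 15 were higher (median 0.21 beside 0.11 for all genes, 1 at an unadjusted p under 0.05, 0 called). Among 9 genes of border macrophages 7 were higher (median 0.21, 0 called). Stab1, a scavenger receptor also found on endothelium, was at -0.04 ± 0.56, the platelet chemokine Pf4 at 0.21 ± 1.30, and the lysozyme gene Lyz2 at 3.83 ± 1.57 (adjusted p = 0.645).
Of the 10 lymphocyte genes 3 were higher (median -0.53), and of 7 tested monocyte and neutrophil genes 4 were (median 0.85), again with 0 called in either list. In Ezh2 ECKO against MCAO ipsilateral the monocyte list had 1 called gene, Ly6c2, at -2.12 (adjusted p = 0.0291). Ly6c1, an endothelial gene nearly identical to it in sequence, was called there too at -2.03 (adjusted p = 0.0291), so the assignment of reads between the copies is uncertain.
Markers of other cells that the gate could hold were tested in the same way, with 0 called in each list. The median log2 fold change between MCAO and sham ipsilateral was -0.76 for 8 mural genes, 0.56 for 7 astrocyte genes, -0.83 for 7 oligodendrocyte genes, -0.25 for 2 oligodendrocyte precursor genes, -1.19 for 6 neuronal genes, 0.49 for 5 red cell genes and -0.04 for 12 endothelial genes. In Ezh2 ECKO against MCAO ipsilateral all 5 red cell genes were called lower (median -7.22).

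**Figure D4:**
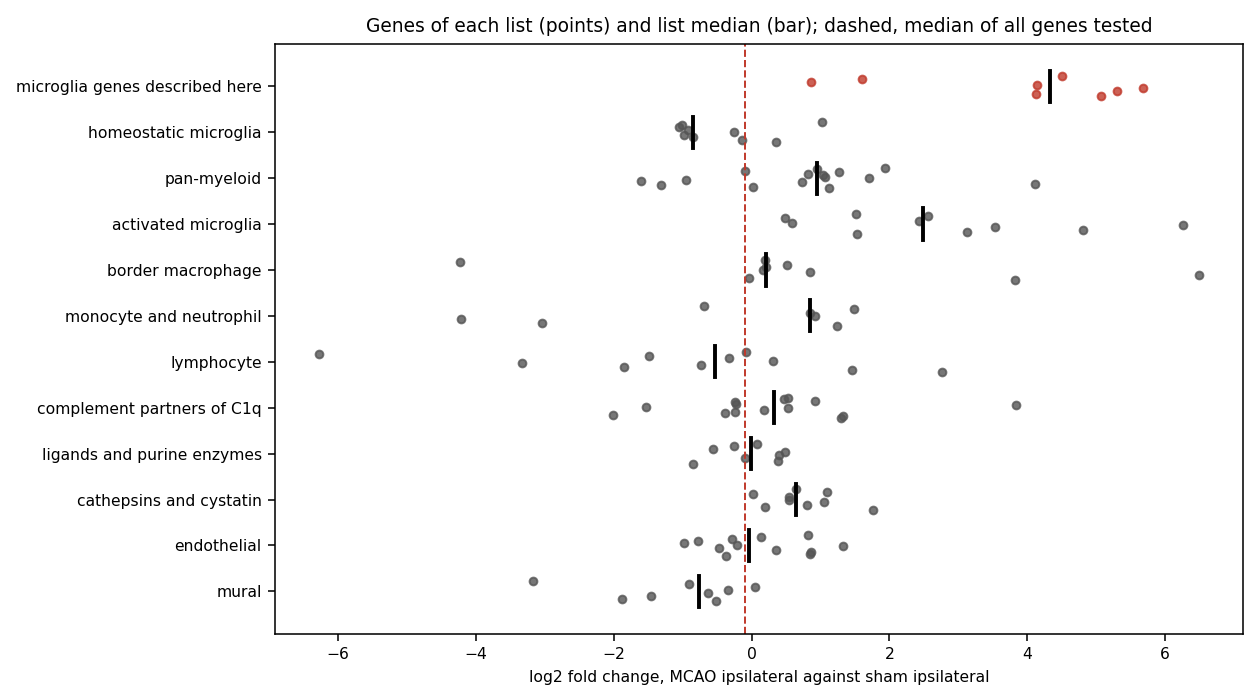
Log2 fold change between MCAO ipsilateral and sham ipsilateral (x axis) of each tested gene (points) by gene list (rows), with list medians as black bars and the median of all genes, -0.09, as a dashed line. The 8 tested microglia genes lie at 0.87 or above, and the other homeostatic microglia genes lie around a median of -0.85.

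Partners of the 9 genes were measured in the same libraries. C1q acts with the proteases C1r and C1s and is checked by surface and fluid-phase inhibitors. Of 14 complement genes, 8 were higher in MCAO ipsilateral than in sham ipsilateral (median 0.32, 3 at an unadjusted p under 0.05, 0 called). Cd59a, an inhibitor of the membrane attack complex, was the most abundant and had a log2 fold change of 1.32 ± 0.41 (adjusted p = 0.509), while Cd93, an endothelial glycoprotein, was at -0.39 ± 0.32. Of 8 ligands and purine-handling genes, 4 were higher and 4 lower (median 0.00, 0 called). The ectonucleotidase gene Entpd1, which degrades the ADP that P2RY12 senses, was at 0.48 ± 0.30, the CX3CR1 ligand Cx3cl1 at -0.56 ± 0.48 and the CSF1R ligand Csf1 at 0.08 ± 0.63. These 3 are made by endothelium and had means of 79.2, 20.2 and 19.0 CPM over all libraries.
The 9 genes of cathepsins and their inhibitor, relatives of Ctss in the lysosome, were all above 0 in log2 fold change (median 0.65, 3 at an unadjusted p under 0.05, 0 called). The cystatin Cst3 was at 0.20 ± 0.48, the protective protein cathepsin A gene Ctsa at 0.65 ± 0.43 and Ctsl at 1.05 ± 0.36 (adjusted p = 0.576). The median of this list lay well under the 4.12 of Ctss. In Ezh2 ECKO 8 of the 9 were lower than in MCAO ipsilateral (median -1.07, 5 at an unadjusted p under 0.05, 0 called). In Hdac2 ECKO 8 of the 9 were lower too (median -0.51, 1 at an unadjusted p under 0.05, 0 called).

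The 9 genes varied together only in part. Over the 18 libraries the median Spearman rho of their 36 pairs was 0.36, and 32 pairs were above 0. The closest pair was C1qb and Ctss (0.70), followed by C1qb and C1qc (0.69), C1qa and C1qb (0.64), and Aif1 with C1qb (0.59). P2ry12 went most with Csf1r (0.51) and least with Tmem119 (0.06), and the lowest pair was Tmem119 with Cx3cr1 (-0.11). The libraries share depth and background with every gene, and these values are descriptions. All 3 C1q genes had 40 or more counts in 5 libraries (MCAO ipsilateral replicates 2 and 3, MCAO contralateral replicate 2, Hdac2 ECKO replicate 1 and Ezh2 ECKO replicate 3) and all were under 40 in 12. The remaining library, MCAO contralateral replicate 1, had 363 counts of C1qa, 2 of C1qb and 2 of C1qc. It is the smallest library and has the highest receptor background but 1, and it also held 255 of the 612 counts of Med12l. Without it the median rho of the pairs was 0.41.

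**Figure D5:**
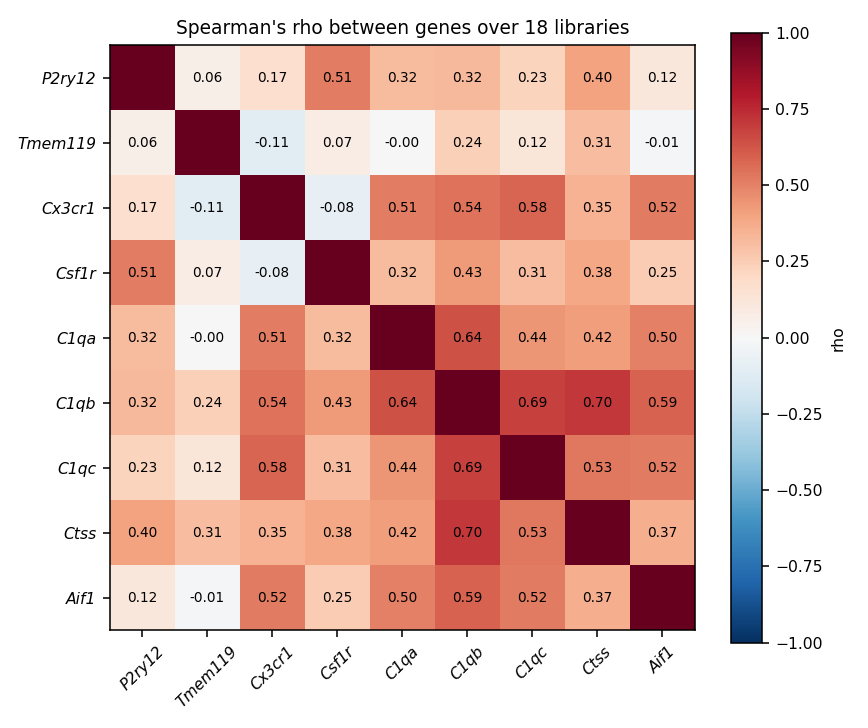
Spearman's rho between the CPM of each pair of the 9 genes over 18 libraries, coloured from -1 to 1. C1qb has a rho of 0.64 with C1qa, 0.69 with C1qc and 0.70 with Ctss, and the row of Tmem119 stays between -0.11 and 0.31.

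Outside the 9, the genes whose level followed their mean most closely were ranked by rho among 17086 genes, whose median rho was -0.03 and 99th percentile 0.59. First was Angptl2, a secreted angiopoietin-like protein (0.86), at 4.60 CPM in MCAO ipsilateral and 0.0674 in sham ipsilateral. It was followed by the predicted gene Gm10320, the neurofilament gene Nefm, the glypican Gpc1 and Spp1 (0.81). Ap1b1, Disp2, the growth factor Areg, the R-spondin receptor Lgr6 and the chaperone Hyou1 (0.77) completed the first 10. Of these only Spp1 is on a microglia list used here. The Fc receptor gene Fcgr3 was the next gene of the myeloid lists, at rank 25 (0.74). The mean level of the 9 genes had a rho of 0.37 with the total count, -0.34 with the receptor background and 0.22 with Cldn5.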

How the data were processed

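Endothelial RNA of 18 libraries in 6 groups of 3 (groups and replicate numbers from the titles) was read from a single deposited table of counts per gene. Its name calls the values normalized, but the deposited counts are whole numbers with unequal totals, so they were treated as unscaled. Per the labels' protocols, the SMART-Seq PLUS chemistry and paired reads from a NovaSeq X Plus were used. The submitters' processing notes name FastQC, cutadapt, STAR, featureCounts and DESeq2 without versions, and the build mm10, which is GRCm38. Start, end, strand and exon length of all 9 genes matched GENCODE M21. A total of 0 columns of sample values were left unmapped.

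The 8 comparisons were tested with edgeR 4.0.16 (R 4.3.3): TMM scaling, a minimum of 10 counts in 3 or more libraries (17094 genes), 1 fit of 6 group means, quasi-likelihood F-test, Benjamini-Hochberg adjustment over all genes tested, and calls at an adjusted p under 0.05. The test was tried on simulated counts, and the outcome is not reported here. The common biological coefficient of variation, edgeR's measure of the spread between libraries of a group, was 0.774. With 3 libraries per group, a gene without a call is not shown to be unchanged. SE is the size of the log2 fold change divided by the square root of F. CPM uses TMM-scaled totals, and correlations use log2 CPM with a prior count of 2. DESeq2 1.42.0 and limma 3.58.1 were alternatives, and leaving out both libraries of highest receptor background was added after the values were seen.

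The members and lists were chosen with earlier results of these data known. Named were the 9 genes, Cldn5, Pecam1, Ptprc, Itga2b, Hdac2 and Ezh2, up to 3 called genes per list or else the 3 most abundant, and the 10 genes most like the members. Genes below the filter, Fcgr3, Med12l and Ly6c1 were named after their values were seen. Some genes that this rule names are not reported here.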

Additional observations from a re-analysis of the deposited data

How the results depend on the processing

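No member was called under edgeR's quasi-likelihood test with RLE factors, no low-count filter, a count of at least 50 in 3 libraries, halved counts, a fit of only the groups compared, or scaling by Cldn5 plus Pecam1, nor under limma-trend or without any single library. DESeq2 called 2 members in MCAO ipsilateral against sham ipsilateral (P2ry12 and Ctss) and 1 in Ezh2 ECKO against MCAO ipsilateral (P2ry12); the cause was not tested. P2ry12 in MCAO ipsilateral against sham ipsilateral kept its direction in every setting, between 3.83 and 6.09, with adjusted p-values from 0.0261 to 1. In the ECKO comparisons it ranged from -4.27 to -2.43 (Hdac2) and from -4.58 to -2.60 (Ezh2). Ctss reversed to 0.53 in Hdac2 ECKO and 0.95 in Ezh2 ECKO with scaling by Cldn5 plus Pecam1, to 0.0528 in Ezh2 ECKO without Ezh2 ECKO replicate 2 (-0.961 to 0.0528 without single libraries), and to 0.0906 there without both libraries of highest receptor background, a setting chosen after seeing the data. P2ry12 in Hdac2 ECKO against Ezh2 ECKO reversed to -0.0262 without Hdac2 ECKO replicate 2 (-0.0262 to 1.38 without single libraries). The median rho of the member pairs ranged from 0.28 to 0.41 when single libraries were left out. Calls over all genes for Ezh2 ECKO against MCAO ipsilateral numbered 250, and 1609 with DESeq2, 485 with only the groups compared, 1000 without both background libraries, 513 with a minimum of 50 counts, 428 with halved counts, 416 with limma-trend, 12 with the replicate block, 5 with endothelial scaling and 5 to 1362 without single libraries. In MCAO ipsilateral against sham ipsilateral they were 0, and 55 with DESeq2, 74 with only the groups compared, 13 without both background libraries and 2 without a filter. For Hdac2 ECKO against MCAO ipsilateral the 2 calls became 240 with DESeq2 and 62 without both background libraries, and for Hdac2 ECKO against Ezh2 ECKO the 21 became 643 and 115. Low counts, raised by counting both mates, limit the precision of Cx3cr1, Tmem119, Aif1 and the C1q genes.

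Same-numbered libraries of the 2 sides had correlations of deviations of 0.10, 0.21 and -0.04 in sham and 0.01, 0.27 and -0.17 in MCAO, so the numbers were not taken to pair them. With the replicate block, no member was called in any comparison, and P2ry12 in MCAO ipsilateral against sham ipsilateral stood at 4.91 (adjusted p = 0.748).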
